A study of Mus musculus with 46 samples.

Results

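The 6 genes described here, Afp, Ttr, Rbp4, Trf, Fga and Fgb, encode proteins that are secreted into serum or yolk sac fluid, and were chosen by symbol out of the 21812 genes listed in each of 7 count tables. All 6 were listed in every table. RNA was sequenced from mouse EPSCs (extended pluripotent stem cells, which can form embryonic and extraembryonic lineages) and from cells derived from them, in 46 libraries and 19 groups. The series asked how transcriptomes and RNA stability differ between these states, and its title places the work in primitive endoderm (PrE) development and N6-methyladenosine, an internal modification of mRNA. Total counts per library ran from 6854433 to 22280769.

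The groups were as follows. VE and EPI parts, 6 libraries each, were freed with pronase E from embryoids 5 days old that had been grown from EPSCs together with cells named GBL-1, whose nature the labels do not state. PrE-E and EPI-E, 2 libraries each, were the CD140+ and CD140- cells of EPSC cultures kept in PrE-inducing medium. The same induction without a stated sort gave cells labelled Virma cKO and WT, Mettl3 cKO and WT, and siIgf2bp3 and siNC, 2 libraries each. It also gave PrEdiff cells, which, like uninduced EPS cells, were collected with 2 libraries each at 0, 1, 2 and 3 h of treatment with actinomycin D, which blocks transcription. A last table held EPSC, 2 libraries. The labels named no driver or timing for either cKO and no separate cultures for the replicates, so the p-values reflect a library-to-library spread that may be technical.

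Visceral endoderm is the epithelium that covers the early embryo, and it takes up maternal proteins through apical receptors while secreting plasma-type proteins before the liver exists. Afp encodes alpha-fetoprotein, the albumin-like carrier of fetal serum. Ttr encodes transthyretin, which carries thyroid hormone and binds the retinol carrier encoded by Rbp4. Trf encodes transferrin, the iron carrier, and Fga and Fgb encode the alpha and beta chains of fibrinogen, the clotting precursor, which is assembled together with the gamma chain from Fgg. In liver, genes of this kind are known targets of the HNF4, FOXA and C/EBP factors.

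Of the 6 genes, 4 had a promoter that could be shown, credited to RefSeq with coordinates on GRCm38.p6; each line runs over the 250 bases before the annotated start, 5′ to 3′ on the gene's strand. They are printed because these genes are the secreted set whose levels are compared next, and capitals mark each match, on either strand, to 3 motifs. The letters searched were TGTTTAC or TGTTTGC for the FOXA factors. For the GATA factors they were AGATAA or TGATAA, and for the TATA box TATAAA. Afp lies at chr5:90490464-90490713 on the plus strand, Fgb at chr3:83049864-83050113 on the minus strand, Fga at chr3:83025903-83026152 on the plus strand and Rbp4 at chr19:38125322-38125571 on the minus strand.
Afp: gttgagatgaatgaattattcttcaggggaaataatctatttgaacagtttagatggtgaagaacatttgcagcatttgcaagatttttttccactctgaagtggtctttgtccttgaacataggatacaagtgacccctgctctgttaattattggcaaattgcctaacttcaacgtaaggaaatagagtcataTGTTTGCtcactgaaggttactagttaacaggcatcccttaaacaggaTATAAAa
Fgb: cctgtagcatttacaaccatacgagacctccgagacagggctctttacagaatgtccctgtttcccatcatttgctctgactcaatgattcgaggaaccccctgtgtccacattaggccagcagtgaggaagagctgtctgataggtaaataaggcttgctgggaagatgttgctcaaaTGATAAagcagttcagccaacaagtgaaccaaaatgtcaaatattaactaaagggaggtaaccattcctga
Fga: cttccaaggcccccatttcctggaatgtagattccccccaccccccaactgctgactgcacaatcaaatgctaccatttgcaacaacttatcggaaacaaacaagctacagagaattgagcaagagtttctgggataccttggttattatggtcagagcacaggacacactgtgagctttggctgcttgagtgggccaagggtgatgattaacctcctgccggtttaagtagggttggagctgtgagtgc
Rbp4: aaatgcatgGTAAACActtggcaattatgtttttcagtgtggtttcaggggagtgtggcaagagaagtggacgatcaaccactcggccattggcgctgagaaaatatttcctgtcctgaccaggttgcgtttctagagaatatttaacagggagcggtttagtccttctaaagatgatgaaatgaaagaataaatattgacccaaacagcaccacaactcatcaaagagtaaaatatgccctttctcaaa
The Afp window held a FOXA match, whose first base lies 55 bases before the start, and a TATA box match 7 bases before it. Rbp4 held a FOXA match 241 bases and Fgb a GATA match 71 bases before the start, and Fga held 0 matches. For Rbp4 the window before a further annotated start is not printed, and its matches are not given. No matches overlapped. Of 32851 promoter windows of this length, 7.29% held the FOXA motif, 16.6% the GATA motif and 12.4% the TATA box. A match is a run of letters and not a measured binding site.

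In embryoids, Afp, Ttr, Rbp4 and Fgb were far higher in the VE than in the EPI part, while Trf was lower and Fga was too sparse to test. The retinol pair and alpha-fetoprotein carried most of the signal. Levels are given as CPM, the usual depth-scaled count, with TMM factors taken within each table. Changes are log2 values ± SE from edgeR's quasi-likelihood test, and "rose" and "fell" mean an adjusted p under 0.05.

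Ttr counts in the 6 VE libraries ran from 4672 to 6392 with a median of 5630, against 1 to 89 with a median of 17.5 in the 6 EPI libraries. In CPM this was 712 ± 46.8 in VE and 2.95 ± 3.19 in EPI (SD, n = 6 each). The groups did not overlap, and Ttr rose by 8.00 ± 0.43 (adjusted p = 1.20e-08), a 241-fold ratio of means. Without EPI library 2, which held the 89 counts, the log2 change was 8.81.

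Rbp4 had 498 to 795 counts with a median of 676.5 in VE libraries, against 10 to 25 with a median of 15.5 in EPI libraries. Its level was 84.8 ± 9.55 CPM in VE and 1.65 ± 0.513 CPM in EPI, without overlap (5.68 ± 0.18, adjusted p = 7.40e-17). Rbp4 thus rose together with its plasma partner Ttr, at a 51.5-fold ratio of means.

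Afp had 766 to 893 counts with a median of 791.5 in VE libraries, against 0 to 15 with a median of 1 in EPI libraries, 3 of which held none. Its level was 104 ± 11.3 CPM in VE and 0.401 ± 0.608 CPM in EPI (7.89 ± 0.37, adjusted p = 1.98e-13). The groups did not overlap, and without EPI library 2, which held the 15 counts, the change was 8.79. Alb, the adult serum albumin gene next to Afp on chromosome 5, had no count in 6 of 6 VE libraries.

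Fgb had 93 to 157 counts with a median of 122.5 in VE libraries, against a single count over all EPI libraries. The ratio of VE to EPI was 1001.7, with an exact 95% interval of 179 to 39617 that covers counting error only. The call was clear (adjusted p = 2.22e-12), although the fitted size for a gene so near 0 in EPI depends on the prior count. The other chains were sparse and uneven. Fga had 5, 0, 7, 15, 0 and 3 counts in VE libraries 1 to 6, against 10 counts in EPI library 6 and none in the other EPI libraries. The 2 groups overlapped, and Fga did not pass the low-count filter. Fgg had 94 counts in all over the VE libraries, 2 of them from library 2 and none from library 5.

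Trf ran the other way. It had 27 to 79 counts with a median of 46 in VE libraries, against 219 to 368 with a median of 256 in EPI libraries. Its level was 6.29 ± 1.94 CPM in VE and 27.4 ± 8.66 CPM in EPI, and it fell by 2.12 ± 0.25 (adjusted p = 2.33e-07), 4.36-fold lower in VE without overlap. Tfrc, which encodes the receptor for transferrin, fell as well, with 2.83 ± 1.58 CPM in VE and 52.4 ± 7.46 CPM in EPI (-4.20 ± 0.29). Slc40a1, which encodes the iron exporter ferroportin, rose (4.12 ± 0.12), with 285 ± 23.3 CPM in VE and 16.4 ± 3.61 CPM in EPI. In a list of genes for retinol, iron and thyroid hormone handling, 9 were tested, of which 6 rose and 1 fell.

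Across the whole table, 72.5% of tested genes were called in this comparison, 34.5% higher in VE and 38.0% lower, so a call by itself says little about the 5 tested carrier genes; 4 rose and 1 fell. The 4 that rose passed the low-count filter only with the VE libraries, where they were high, so their direction is no independent result. Levels between genes are comparable only per length. Per kilobase of exon, the VE level was 600.45 CPM for Ttr, 63.1 for Rbp4, 30.8 for Afp, 4.14 for Fgb, 1.89 for Trf and 0.218 for Fga. Ttr stood highest and Fga lowest, and the alpha and beta chains of the same protein lay far apart.

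All 10 visceral endoderm markers rose in VE, and their summed share of counts was 1.04 to 1.07% in VE libraries and 0.0244 to 0.0348% in EPI libraries. The highest EPI share was in library 2, which also had the most Afp, Ttr and Rbp4 counts of its group; the part of VE material in that library was not tested. Of 8 epiblast markers, 7 fell. Parietal endoderm markers mostly rose too, 5 of 7 tested with 1 falling, and of 3 tested trophoblast markers 2 rose and 1 fell. In bulk samples, fewer cells of a type and less RNA per cell cannot be told apart.

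**Figure D1:**
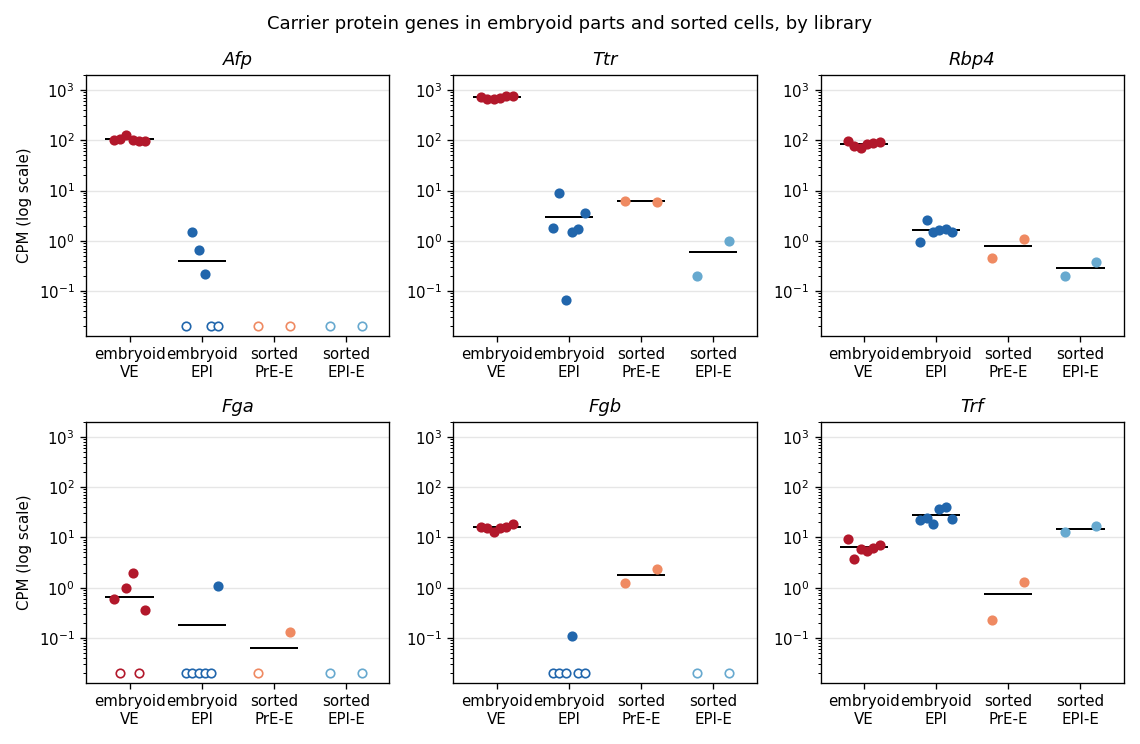
CPM on a log scale for each carrier gene in each library of embryoid VE, embryoid EPI, sorted PrE-E and sorted EPI-E, with black lines at group means. Open points are libraries with 0 counts, drawn near the bottom of the axis; Afp lies between 94.8 and 125 CPM in VE, has 3 filled points up to 1.53 CPM in EPI, and has open points in all 4 sorted libraries, while Trf is lower in VE and PrE-E than in EPI and EPI-E.

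In sorted cells, Ttr and Fgb were higher in PrE-E than in EPI-E and Trf was lower, but every level was small. Afp had no count in either group. The 3 tested carrier genes were called, 2 rising and 1 falling, where 57.7% of all tested genes were called. Of all tested genes, 28.3% were higher and 29.5% lower in PrE-E. Each of the 3 passed the low-count filter only with the group where it was higher, so its direction is no independent result.

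Ttr had 80 and 93 counts in PrE-E, against 3 and 13 counts in EPI-E. The level was 6.08 ± 0.126 CPM in PrE-E and 0.593 ± 0.558 CPM in EPI-E, a 10.2-fold ratio of means without overlap (3.36 ± 0.82, adjusted p = 0.00357). The change was 2.61 without EPI-E library 1 and 4.88 without EPI-E library 2.

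Fgb had 16 and 37 counts in PrE-E, against none in EPI-E. With 3 counts set as the limit that a count of 0 allows in each EPI-E library, it was at least 8.47-fold higher in PrE-E (adjusted p = 0.00557). The call was lost without PrE-E library 2, EPI-E library 1 or EPI-E library 2, with adjusted p = 0.0594, 0.0624 and 0.0551 in that order. Rbp4, with 6 and 17 counts in PrE-E against 3 and 5 in EPI-E, was under the low-count filter, as was Fga with 0 and 2 counts against none.

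Trf had 3 and 20 counts in PrE-E, against 190 and 219 counts in EPI-E. Its level was 0.759 ± 0.747 CPM in PrE-E and 14.6 ± 2.88 CPM in EPI-E, so that it fell by 4.20 ± 0.62 (adjusted p = 7.12e-05), 19.2-fold lower without overlap. The PrE-E libraries differed, and the change was -3.49 without library 1 and -5.95 without library 2. Tfrc fell here as well (-5.31 ± 0.23, with 3.52 ± 1.79 CPM in PrE-E and 136 ± 1.67 CPM in EPI-E). In the list for retinol, iron and thyroid hormone handling, 11 genes were tested, of which 7 rose and 4 fell.

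PrE-E nevertheless had the endoderm genes that often accompany these carriers. Visceral endoderm markers took 1.10% and 1.13% of PrE-E counts, against 0.0254% and 0.0243% of EPI-E counts, and 10 of 10 rose. Parietal endoderm markers took 1.56% and 1.53% of PrE-E counts, against 0.0141% and 0.0168% of EPI-E counts, and 7 of 8 tested rose. The receptor genes Lrp2 (megalin), Cubn (cubilin), Amn (amnionless) and Dab2 (their adaptor) all rose, 4 of 4. Of the endoderm and hepatic transcription factors, 13 rose and 1 fell of 17 tested; Gata4 stood at 279 ± 16.8 CPM in PrE-E and 0.463 ± 0.655 CPM in EPI-E, and Hnf4a at 24.7 ± 7.33 CPM in PrE-E and 0.109 ± 0.0607 CPM in EPI-E. Of the visceral endoderm markers, 3 (Lrp2, Cubn and Amn) are also receptors and 3 (Apoa1, Apob and Apom) are apolipoproteins.

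Set against sorted PrE-E, embryoid VE had more of each of the 5 tested carrier genes. All 5 rose, where 61.2% of all tested genes were called, 3784 higher and 4684 lower in VE. Afp and Rbp4 were under the low-count filter in sorted cells and were tested here only with the embryoid libraries added. Their direction in the count of 5 is therefore no independent result. The VE and PrE-E libraries come from different tables, so that table and group cannot be told apart here. Afp had 4850 counts over the 6 VE libraries and none over the 2 PrE-E libraries, at least 453-fold higher in VE against 3 counts per PrE-E library. Feeder fibroblast markers took 0 to 0.000137% of counts in VE libraries, against 0.0337% and 0.0350% in PrE-E libraries, and parietal endoderm markers took 0.629 to 0.651% in VE, against 1.56% and 1.53% in PrE-E. Their part in the result was not tested. Ttr was 108-fold higher in VE (6.76 ± 0.65, adjusted p = 5.38e-07) and Rbp4 99.97-fold higher (6.60 ± 0.38, adjusted p = 2.41e-13). Fgb was 8.02-fold higher in VE (2.99 ± 0.63) and Trf 7.56-fold higher (2.87 ± 0.54). Leaving out PrE-E library 2 moved Rbp4 to 7.42, Fgb to 3.60 and Trf to 4.64, and leaving out PrE-E library 1 moved Trf to 2.16. Fga was not tested, and its libraries overlapped, with 0 to 15 counts in VE against 0 and 2 in PrE-E. The ratio of its summed counts was 8.41, with an exact 95% interval of 2.13 to 72.6 for counting error only.

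Among other gene lists, apolipoproteins were higher in VE and feeder fibroblast markers lower (9 of 9 tested, list median -8.88). Of 6 tested trophoblast markers 2 rose and 0 fell, and most of the remaining lists were mixed. Of the apolipoprotein genes, 8 of 8 tested were higher in VE, with a list median of 3.60 where the median of all genes was -0.13. Apoa1, the main HDL protein, stood at 1079 ± 58.4 CPM in VE and 1.80 ± 0.367 CPM in PrE-E, and Apob, the LDL protein, at 149 ± 18.9 CPM in VE and 15.96 ± 3.83 CPM in PrE-E. Among 34 further plasma protein genes, 13 were tested, of which 3 rose and 1 fell, with a list median of -0.46, below that of all genes. One of the 3 was Gc, the vitamin D carrier of the albumin family, with 14.6 ± 1.30 CPM in VE and no count in PrE-E. Lrp2 (-0.77 ± 0.10) and Cubn (-1.29 ± 0.09) were lower in VE, Amn (3.27 ± 0.19) and Dab2 (0.32 ± 0.10) higher. Scaled to ribosomal protein genes, the median of all genes here was -0.90. The direction of a difference as small as that of Dab2 therefore depends on the scaling, as does the size of the others, Hnf4a included. Gata4 (-1.58 ± 0.34) and Gata6 (-1.83 ± 0.40) were lower in VE, Hnf4a was higher (1.09 ± 0.41), and Foxa2 (-0.61 ± 0.53, adjusted p = 0.334) missed the threshold.

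**Figure D2:**
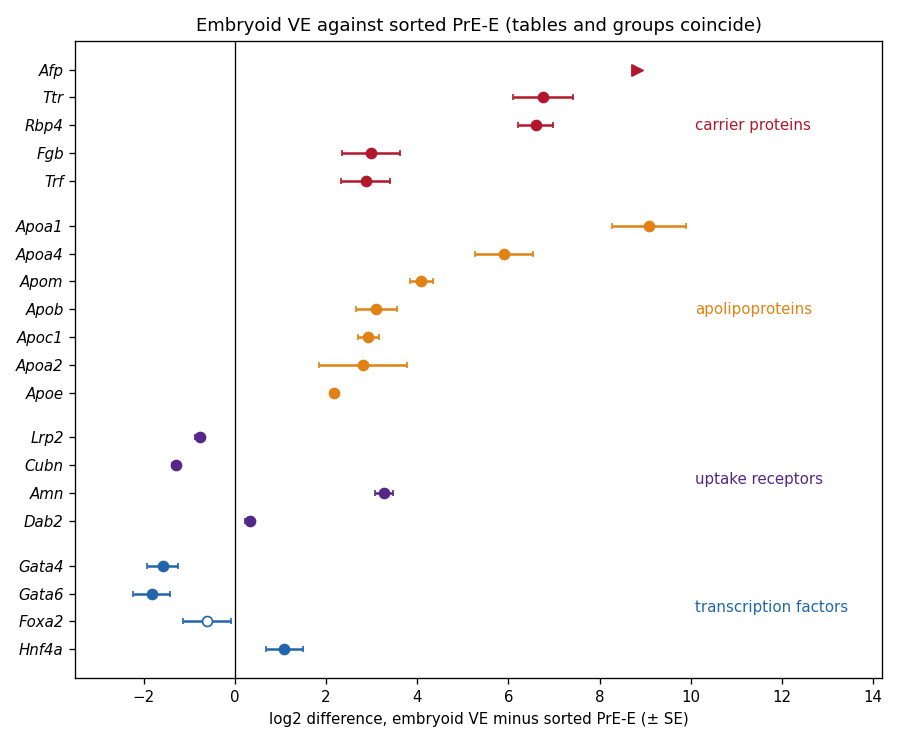
Log2 difference of embryoid VE minus sorted PrE-E, ± SE, for carrier proteins, apolipoproteins other than the near-absent Apoc3, uptake receptors and 4 transcription factors; filled points had an adjusted p under 0.05 and the Afp arrowhead is a lower bound. The carrier and apolipoprotein points all lie right of 0, from 2.18 for Apoe upward, whereas Gata4, Gata6, Lrp2 and Cubn lie left of it.

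The epiblast-type groups of the same tables differed too. They are unlike material, so an offset between tables cannot be told apart from other differences between them. Rbp4 stood at 1.65 ± 0.513 CPM in embryoid EPI and 0.289 ± 0.128 CPM in EPI-E, and Ttr at 2.95 ± 3.19 CPM in embryoid EPI and 0.593 ± 0.558 CPM in EPI-E. Ftl1, the ferritin light chain gene, was at 6099 ± 206 CPM in embryoid EPI and 219 ± 23.3 CPM in EPI-E, so that genes could differ greatly between these tables in groups of like label. The difference between the contrasts, VE minus EPI less PrE-E minus EPI-E, sets each table against its own epiblast group. Rbp4 was under the low-count filter in sorted cells, so the sorted side of its contrast rests on few counts. The difference was called for Rbp4 (4.40 ± 0.76, adjusted p = 0.000180) and Trf (2.25 ± 0.65, adjusted p = 0.0147), and 20.6% of all tested genes were called. For Trf this means a smaller fall in embryoids than in sorted cells, and the call was lost without PrE-E library 1 (1.51, adjusted p = 0.154) or EPI-E library 2 (2.05, adjusted p = 0.0641). Ttr had 4.77 ± 1.94 (adjusted p = 0.107), which DESeq2 called at 4.68 (adjusted p = 0.00153) and edgeR called without EPI library 2 (5.58, adjusted p = 0.00140) or EPI library 3 (4.42, adjusted p = 0.0318). Fgb was not called (adjusted p = 0.896), and for Afp the contrast has no size, both sorted groups being at 0. DESeq2 still counted Afp as called (adjusted p = 0.0147), which carries no weight for that reason.

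Over all 19 groups, Trf was the one carrier gene above the 3-count limit everywhere. EPS cells had 36.2 to 54.1 CPM over the 4 actinomycin D times, and EPSC had 42.9 ± 1.73 CPM. Induced cells without actinomycin D lay below EPSC, from 34.1 ± 0.834 CPM in siIgf2bp3 cells to 11.8 ± 3.96 CPM in Virma cKO cells. EPI-E stood at 14.6 CPM, overlapping both Virma groups, and the bottom places were held by VE at 6.29 CPM and PrE-E at 0.759 CPM, which did not overlap each other. Neighbouring groups that overlapped were EPSC with PrEdiff at 2 h, the run from siNC through embryoid EPI and PrEdiff at 0 h to Mettl3 cKO, and the run from Virma WT through EPI-E and Virma cKO to VE.

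**Figure D3:**
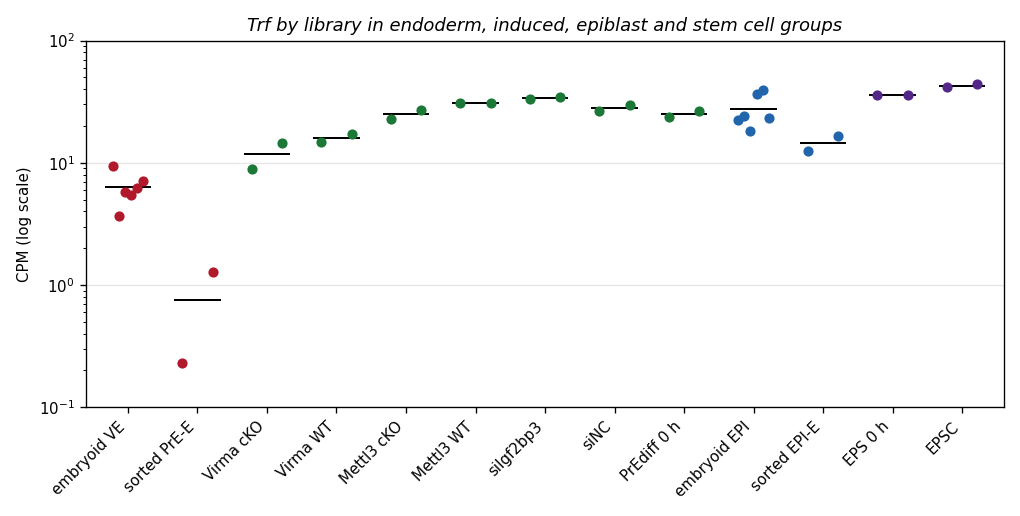
Trf in CPM on a log scale for each library of 13 groups, with red for VE and PrE-E, green for induced cultures, blue for EPI and EPI-E and purple for EPS and EPSC; tables were scaled separately and black lines are group means. PrE-E has the lowest points, 0.231 and 1.29 CPM, and EPSC the highest, 41.7 and 44.1 CPM.

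The rest were concentrated in VE. Afp exceeded the limit of a 0 count in VE and embryoid EPI alone, and was at 0 in every library of 10 groups. Ttr exceeded it in VE, PrE-E, embryoid EPI and EPI-E, the last 3 overlapping as neighbours in order. Rbp4 exceeded it in 17 groups, with VE first, PrEdiff at 2, 3, 1 and 0 h next in separate steps, and both Virma groups at or under the limit. Fgb exceeded it in 11 groups, where VE at 15.8 CPM was followed by Virma WT at 3.20 and PrE-E at 1.81 CPM, which overlapped. Fga exceeded it only in VE. Among induced cultures, siNC was at or under the limit for Fgb, and every EPS or EPSC library but 1 lacked Fgb.

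The genes with the most like pattern were ranked by Pearson's r of log2(CPM + 1) over the 19 group means among 10923 genes with a group mean of at least 10 CPM. For Afp they were Pilrb2 (0.998), Pilrb1 (0.997) and Spp2 (0.995), and for Ttr Ifi27l2b (0.993), Apoa4 (0.992) and Lhx1 (0.991). For Rbp4 they were Creb3l4 (0.960), Paxx (0.942) and Gpc3 (0.924), and for Trf Rpa1 (0.969), Tm7sf3 (0.955) and Csad (0.948). For Fgb they were Slc7a9 (0.954), Irak4 (0.921) and Abcc2 (0.921), and for the near-absent Fga Fmo1 (0.941), Acot3 (0.926) and Hsd17b2 (0.919). Pilrb1 and Pilrb2 are close copies whose reads may be shared. Group means share libraries, tables and depth, and high values of r for the VE genes rest largely on VE itself: between Afp and Ttr r was 0.946 while Spearman's rho was 0.0361.

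Before actinomycin D, PrEdiff cells had more Rbp4 and Fgb and less Trf than EPS cells (3 of 3 tested genes called, 2 rising and 1 falling, where 80.5% of all tested genes were called). Rbp4 had 51 and 55 counts in PrEdiff, against 19 and 28 in EPS, or 2.80 ± 0.109 CPM in PrEdiff and 1.09 ± 0.268 CPM in EPS (1.35 ± 0.24, adjusted p = 1.22e-07). Fgb had 6 and 5 counts in PrEdiff, against none in EPS, at least 2.08-fold higher (adjusted p = 0.000256). It passed the low-count filter, which took all 16 libraries, only through PrEdiff libraries. The direction of Fgb in the count of 3 is therefore no independent result. Trf had 444 and 509 counts in PrEdiff, against 763 and 792 in EPS, and fell by 0.53 ± 0.06 (adjusted p = 5.28e-16), with 25.1 ± 2.06 CPM in PrEdiff and 36.2 ± 0.0223 CPM in EPS. Replicates of this table lay close to counting error (chi-square per degree of freedom 1.21 to 1.32), so these p-values may reflect little more than that.

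During actinomycin D the CPM of Rbp4 and Trf, scaled with TMM factors, went up in PrEdiff. In hours 0, 1, 2 and 3, Rbp4 in PrEdiff stood at 2.80, 5.12, 7.26 and 6.60 CPM, and Trf at 25.1, 32.4, 42.4 and 39.3 CPM. The slope was 0.41 ± 0.11 log2 per hour for Rbp4 (adjusted p = 0.012) and 0.23 ± 0.05 for Trf (adjusted p = 0.00280), with 36.9% of all tested genes called. Both peaked at 2 h and not at 3 h. Fgb had 4 to 11 counts per library and a slope of 0.07 ± 0.19 (adjusted p = 0.813). Without the 3 h libraries its slope was 0.54 (adjusted p = 0.0499), which passed the threshold.

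In EPS cells, Trf stood at 36.2, 47.7, 54.1 and 50.6 CPM (0.16 ± 0.05 per hour, adjusted p = 0.0206) and Rbp4 at 1.09, 1.89, 2.28 and 1.33 CPM (0.11 ± 0.14, adjusted p = 0.549), with 36.7% of all tested genes called. Slopes in PrEdiff and EPS differed by 0.30 ± 0.18 for Rbp4 (adjusted p = 0.551) and 0.07 ± 0.07 for Trf (adjusted p = 0.753). Of the 3 genes tested, 0 were called by edgeR or DESeq2 and 0 had an unadjusted p under 0.05, where 1.27% of all genes were called. Because counts are scaled within a library, a slope is relative to the average transcript and a positive one is no sign of new RNA. Scaled to ribosomal protein genes, the PrEdiff slopes were 0.04 for Rbp4 and -0.15 for Trf and the EPS slope of Trf was -0.07, none called. Scaled to library totals, Trf was 0.09 in PrEdiff and 0.05 in EPS, neither called. Without the 3 h libraries, the Rbp4 slope in EPS was 0.55 and was called (adjusted p = 0.000712). In that setting Rbp4 in PrEdiff had a slope of 0.63 and Trf in EPS one of 0.33, both called, and the slopes of PrEdiff and EPS differed by 0.0779 for Rbp4 (adjusted p = 0.809). Calls were lost without a single 0 h library, for Rbp4 in PrEdiff (adjusted p = 0.0788 without library 1 and 0.0741 without library 2) and for Trf in EPS (0.107 without either).

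**Figure D4:**
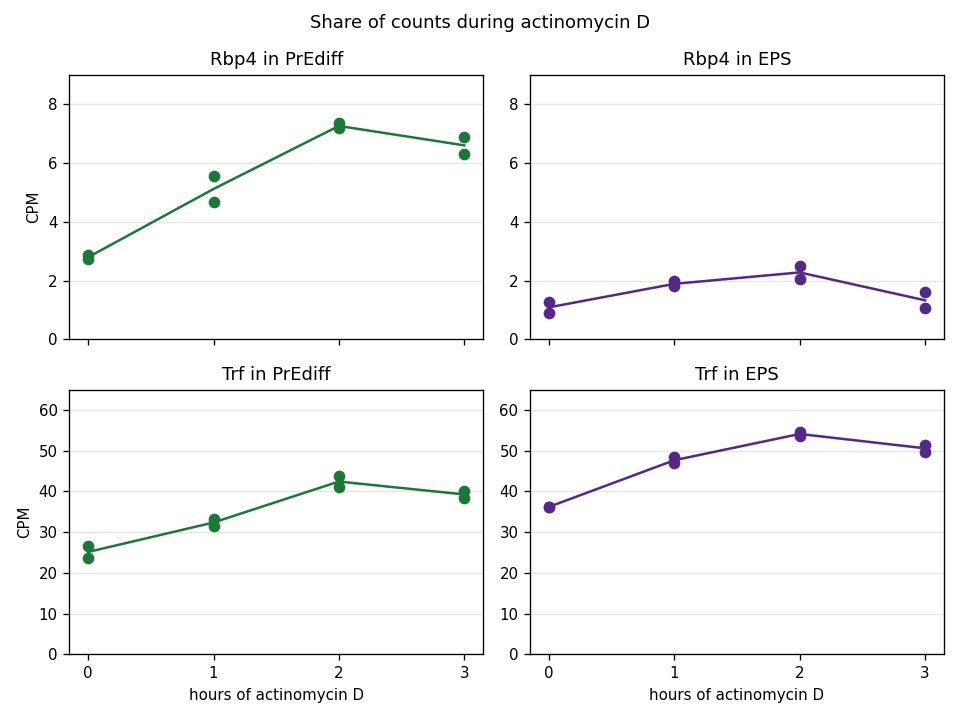
CPM of Rbp4 (top) and Trf (bottom) against hours of actinomycin D in PrEdiff (left) and EPS (right); points are libraries and lines join the means. Each panel is highest at 2 h, where Trf averaged 42.4 CPM in PrEdiff and 54.1 CPM in EPS.

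In the perturbed induced cells no carrier gene was called, while the uptake receptors fell in every one. Only 3 carrier genes were expressed enough to test in any of these tables. Virma fell in cells labelled Virma cKO (-0.82 ± 0.12, adjusted p = 1.13e-06). Mettl3 was not lower in the libraries labelled Mettl3 cKO (-0.02 ± 0.11, adjusted p = 0.978), nor Igf2bp3 in those labelled siIgf2bp3 (0.11 ± 0.11, adjusted p = 0.577), so those contrasts are read by label alone.

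Trf had 107 and 173 counts in Virma cKO, against 149 and 197 counts in Virma WT, or 11.8 ± 3.96 CPM in cKO and 16.03 ± 1.57 CPM in WT. In CPM the groups lay just apart, at 8.95 and 14.6 in cKO against 14.9 and 17.1 in WT, and the change was -0.45 ± 0.28 (adjusted p = 0.242). Fgb had 1 and 16 counts in cKO, against 23 and 47 counts in WT. The groups did not overlap, and the change was -2.15 ± 0.96 (adjusted p = 0.0859). It was called without WT library 1 (-2.51, adjusted p = 0.0433) or cKO library 2 (-5.09, adjusted p = 0.00946), so single libraries decided it. Of 2 tested genes, 0 were called by edgeR or DESeq2 and 1, Fgb, had an unadjusted p under 0.05; 33.2% of all tested genes were called. Rbp4 had 3 and 0 counts in cKO, against 2 and 2 in WT, and Ttr, Fga and Afp had 5 counts or fewer in each library.

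In the same comparison all 4 receptor genes fell, Lrp2 (-4.54 ± 0.08) and Cubn (-4.76 ± 0.08) among them, and of 18 tested transcription factors 2 rose and 10 fell. Visceral endoderm markers took 0.00975% and 0.00874% of counts in Virma cKO, against 0.195% and 0.186% in WT. Feeder fibroblast markers took 0.247% and 0.241% in Virma cKO, against 0.0883% and 0.0876% in WT, and 12 of 12 rose; their part in the carrier values was not tested.

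In the libraries labelled Mettl3 cKO, Trf had 259 and 234 counts, against 373 and 311 counts in WT (25.1 ± 3.13 CPM in cKO and 30.8 ± 0.0321 CPM in WT). The change was -0.31 ± 0.12 (adjusted p = 0.218). Fgb had 13 and 5 counts in cKO, against 8 and 20 in WT (-0.51 ± 0.58, adjusted p = 0.796), and turned to 0.43 without WT library 2. Neither of the 2 tested genes was called by edgeR or DESeq2, and 1, Trf, had an unadjusted p under 0.05; 3.95% of all tested genes were called. Feeder markers took 0.329% and 0.345% of counts in cKO, against 0.239% and 0.227% in WT, and their part was not tested. The 4 receptor genes fell, Lrp2 among them (-0.72 ± 0.05).

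In the libraries labelled siIgf2bp3, Trf had 274 and 301 counts, against 220 and 247 counts in siNC, or 34.1 ± 0.834 CPM in siIgf2bp3 and 28.2 ± 2.43 CPM in siNC. The groups did not overlap, and the change was 0.27 ± 0.14 (adjusted p = 0.230), called without siNC library 2 (0.37, adjusted p = 0.0336). Rbp4 had 6 and 9 counts in siIgf2bp3, against 17 and 11 in siNC (-0.91 ± 0.54, adjusted p = 0.311). Of these 2 genes, 0 were called by edgeR or DESeq2 and 0 had an unadjusted p under 0.05; 7.29% of all tested genes were called. All 4 receptor genes fell, Amn among them (-1.90 ± 0.18). Feeder markers took 0.0677% and 0.0672% of counts in siIgf2bp3, against 0.0729% and 0.0581% in siNC, and 3 of 12 rose. Of 7 tested epiblast markers, 2 rose, and the part of either list in the carrier values was not tested.

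The responses were also set against each other, and 0 of the tested carrier genes differed by edgeR or DESeq2. Between Virma and Mettl3, Trf differed by -0.12 ± 0.30 (95% interval -0.71 to 0.47) and Fgb by -1.56 ± 1.29 (-4.10 to 0.97), 0 of 2 with an unadjusted p under 0.05 and 19.7% of all genes called. Between Virma and siIgf2bp3, Trf differed by -0.73 ± 0.31 (-1.35 to -0.11, adjusted p = 0.105), 1 of 3 with an unadjusted p under 0.05 and 23.3% of all genes called. Without Virma cKO library 2, Trf differed by -1.13 and Fgb by -6.03. That setting leaves 1 Virma cKO library, which held 1 Fgb count. Fgb was also under the low-count filter when siIgf2bp3 and siNC cells were compared. Between Mettl3 and siIgf2bp3, Trf differed by -0.59 ± 0.19 (-0.96 to -0.23, adjusted p = 0.0877), 1 of 2 with an unadjusted p under 0.05 and 2.77% of all genes called. It was called without siNC library 2 (-0.69, adjusted p = 0.00616). 

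**Figure D5:**
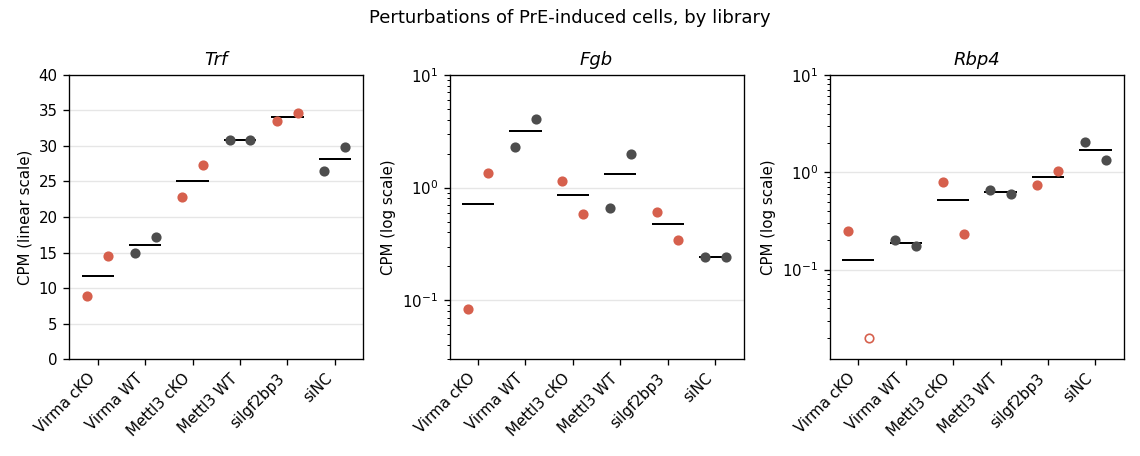
CPM of Trf (linear axis), Fgb and Rbp4 (log axes) for each library of the perturbed induced cells in red and their controls in grey, each perturbed group left of its control; lines are means and the open point near the axis bottom is a library with 0 counts. Fgb in Virma cKO spans 0.0836 to 1.35 CPM, below both Virma WT libraries at 2.30 and 4.09 CPM.

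Read overlaps were checked in GENCODE vM21, a GRCm38 annotation. Afp overlaps the opposite-strand Gm43449 and Trf the same-strand Gm20425, neither of which the count tables list, and since the strand setting of the counting was not given, reads of these partners cannot be told apart.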

How the data were processed

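Groups came from the sample titles. The 7 tables deposited by the authors hold raw counts per gene, whole numbers whose totals differ between libraries, and every column matched one sample, leaving 0 columns unused. Per the submitters' processing notes, the mm39 build was used with STAR 2.7.11b, Subread, DESeq2, Trim Galore and FastQC 0.12.1. The sources used here give neither annotation nor strand setting. The labels' protocols name 2 total RNA library kits without saying which made which library. The 19 repeated symbols of the EPSC table were left out.

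The test was edgeR's (version 4.0.16, under R 4.3.3; TMM factors; filterByExpr at a minimum count of 10 and a minimum total of 15; robust quasi-likelihood fit; Benjamini-Hochberg adjustment over all tested genes; threshold 0.05; log2 changes with a prior count of 0.125). Each SE was the log2 change over the root of its F statistic. Tables compared with each other were joined by gene symbol. Actinomycin D slopes used all 16 libraries. Exact intervals and the 3-count floor for a count of 0 cover counting error only, since reads are not independent molecules. Fits were tested on simulated counts, with changes set only in well-counted genes and with a fixed spread, so calls on few counts were not covered. Members and gene lists were chosen with earlier results of these data known. Named genes were the members, the perturbed genes, Gata4, Gata6, Hnf4a and Foxa2 (a further gene of this rule is not reported here), up to 4 genes per list by adjusted p, and 3 like-patterned genes per member; Alb, Fgg, Gc, Apob, Ftl1 and Slc40a1 were picked outside this rule after their values were seen. Chi-square per degree of freedom lay between 1.21 and 20.6 in 47 comparisons of replicates, above sampling noise, and no library was merged. Same-numbered libraries did not deviate together (correlations -0.13 to 0.0337). Alternatives were RLE factors, DESeq2 1.42.0, library totals, ribosomal protein gene scaling, other count filters, a replicate block, slopes without 3 h and leaving out each library.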

Additional observations from a re-analysis of the deposited data

Results flagged for a closer look

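Among 12 gene and embryoid group combinations checked for a library far from the others, 3 had one. Afp was 125 CPM in embryoid VE library 3, above the others of its group. Fga was 1.06 CPM in embryoid EPI library 6, and Fgb was 0.109 CPM in embryoid EPI library 4, each the one library of the group with any count. Where all other libraries are at 0, any count stands out, so these cases are not set against a chance rate. A difference between contrasts was found for Rbp4, whose VE minus EPI change exceeded its PrE-E minus EPI-E change by 4.40 log2 units, and for Trf, by 2.25. Rbp4 was under the low-count filter in sorted cells, so its PrE-E minus EPI-E change rests on few counts. The libraries of the 2 contrasts come from separate tables.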

How the results depend on the processing

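Of 807 recomputed carrier gene changes, 764 kept their direction and side of the threshold, 12 lost and 12 gained a call and 19 reversed, and none of the reversals was of a value called under both settings; the cause was not tested. The sorted, embryoid, 0 h and VE minus PrE-E counts of called carrier genes changed in no setting other than sorted without a library (2 to 3). The call counts that moved by over 1.5 times were Mettl3 cKO (247 with DESeq2, 267 with ribosomal scaling, against 518), siIgf2bp3 (1699 with no low-count filter, 242 to 4936 without 1 library, against 942), PrEdiff slopes (9153 with ribosomal scaling, 8381 without 3 h, 3150 to 5466 without 1 library), EPS slopes (9441 without 3 h), slope differences (528 with DESeq2, 2 with ribosomal scaling, 926 without 3 h, 89 to 206 without 1 library), Virma minus Mettl3 responses (4355 with ribosomal scaling, 1633 to 3377 without 1 library), Virma minus siIgf2bp3 (1853 to 3326 without 1 library) and Mettl3 minus siIgf2bp3 (899 with no filter, 145 with ribosomal scaling, 65 to 2819 without 1 library). Called carrier genes numbered 1 with library totals and 0 with ribosomal scaling for PrEdiff slopes (1 to 2 without 1 library), 0 with library totals, 0 with ribosomal scaling and 2 without 3 h for EPS slopes (0 to 1 without 1 library), and 4 with DESeq2 for the difference between the embryoid and sorted contrasts (1 to 3 without 1 library). Without 1 library they ranged over 0 to 1 for Virma, 0 to 1 for siIgf2bp3, 0 to 2 for Virma minus siIgf2bp3 and 0 to 1 for Mettl3 minus siIgf2bp3. Reversed slopes were Fgb in PrEdiff (-0.0746 with library totals, -0.31 with ribosomal scaling), Trf in PrEdiff (-0.15 with ribosomal scaling), Rbp4 (-0.12) and Trf (-0.0706) in EPS with ribosomal scaling, Fgb in EPS without 3 h (-1.34e-11) and, for slope differences, Trf (-0.0773 with ribosomal scaling) and Fgb (0.54 without 3 h). Trf in Virma minus Mettl3 reversed to 0.0101 with library totals and 0.30 with ribosomal scaling. Without 1 library, ranges that crossed 0 were -1.14 to 0.43 for Fgb in Mettl3, -0.0463 to 0.20 for Fgb slopes in PrEdiff, -0.0193 to 0.26 for Rbp4 and -1.43e-11 to 1.24 for Fgb slopes in EPS, -1.17 to 0.0698 for Fgb slope differences, -0.51 to 0.0587 for Trf in Virma minus Mettl3, and -3.26 to 1.31 and -0.44 to 1.23 for Rbp4 in Virma and Mettl3 minus siIgf2bp3. The replicate numbers did not pair the samples; with the number as a replicate block 1467 genes were called for siIgf2bp3 and 211 for Mettl3 minus siIgf2bp3, and the calls of carrier genes did not change. A crossed pairing as block, added after seeing the data, called 1421 genes for Mettl3 cKO. Of 18 like-patterned genes, 1 stayed among the nearest by Spearman's rho and 0 over the 12 embryoid libraries alone. Depth limits Fga, Afp outside VE, and Ttr in induced cells, whose counts are at or near 0. Scaling to ribosomal protein genes moved the median log2 change of all genes to 0.22 in sorted cells, 0.27 in embryoids, 0.43 in Virma cKO, -0.36 for PrEdiff slopes and -0.90 for VE minus PrE-E. It moved the share of calls that were higher to 61.1% against 48.9% in sorted cells, 60.6% against 47.6% in embryoids, 86.8% against 45.6% in Virma cKO, 49.1% against 63.5% in Mettl3 cKO, 0.0219% against 55.0% for PrEdiff slopes, 0.436% against 49.6% for EPS slopes and 27.6% against 44.7% for VE minus PrE-E, 44.6% against 54.8% for the difference between the embryoid and sorted contrasts, 90.5% against 44.5% for Virma minus Mettl3 and 85.0% against 39.9% for Virma minus siIgf2bp3; library totals gave 63.7% and 61.4% for these last and 66.7% in Virma cKO, 57.7% against 46.7% at 0 h, 9.99% and 10.9% for PrEdiff and EPS slopes, and 37.8% for the difference between the embryoid and sorted contrasts. RLE factors gave 33.1% for Virma minus Mettl3.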
